A study of Sus scrofa domesticus with 4 samples.

Results

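The macrophage and myeloid genes described here are AIF1, GP91-PHOX, CD14, CD163, TYROBP and FCER1G, chosen by their pig gene symbols and found through the RefSeq accessions of the array probes. All 6 are on the array, with 13 probes of 43603, and 11 of these 13 probes were bright enough to test, among 26927 tested in all. For each gene the tested probe of highest mean brightness stands for the gene, so that 6 of 2407 named genes with a tested probe are followed. The tissue was endometrium, the lining of the uterus, of 4 gilts (Large White x Polish Landrace, 7 to 8 months old) on days 15 to 16 of gestation. After 2 h of preculture, slices were incubated for 24 h with orexin A (OXA), a hypothalamic peptide that acts on appetite and wakefulness, or left untreated. The OXA concentration is 10 nM in the labels of the samples and 10 µM in the design text of the series. On each of 4 two-colour arrays 1 RNA of OXA-treated tissue was set against 1 RNA of untreated control tissue, and the sources used here do not say whether both came from 1 gilt.

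Macrophages are phagocytes of the innate immune system, and in the pregnant uterus they are known to clear debris, present antigen and take part in remodelling of the tissue. CD14 and CD163 are surface receptors, the first a partner of Toll-like receptor 4 in sensing bacterial lipopolysaccharide and the second a scavenger of haemoglobin bound to haptoglobin. TYROBP (DAP12) and FCER1G (the common gamma chain of Fc receptors) are small membrane adaptors that carry the signal of receptors lacking a signalling tail of their own. GP91-PHOX, also named CYBB or NOX2, is the catalytic subunit of the NADPH oxidase with which phagocytes make superoxide, and AIF1 (IBA1) is an actin-binding protein widely used as a macrophage marker. Some of these genes are also expressed in other leukocytes, TYROBP and FCER1G in natural killer cells and GP91-PHOX in neutrophils. In tissue pieces, fewer cells of a type and less RNA per cell cannot be told apart.

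The 4 arrays are numbered as in their titles, and values are log2 ratios after background correction and loess normalization unless stated. By the dye labels of the single samples Cy5 carried the OXA RNA of arrays 1 and 3 and Cy3 that of arrays 2 and 4, whereas the labelling protocol puts OXA in Cy5 throughout. The direction of OXA over control on arrays 2 and 4, and of the fitted OXA values, therefore depends on which of these is right. The authors' deposited ratios follow the sample labels, being turned on arrays 2 and 4 against Cy5 over Cy3. Cy5 over Cy3 as scanned is given beside OXA over control. Array 1 lay on another slide than arrays 2 to 4 and was scanned 71 days later. In Cy3 31.8% of its probes were well above background, against 52.1% to 56.7% on the other arrays, while in Cy5 the share was 62.4% to 74.5% over the 4 arrays. No spot reached saturation, and precision is limited by there being 4 arrays. Across 26927 probes, which are not independent replicates, the OXA over control ratios of arrays with OXA in the same dye correlated with Pearson's r of 0.11 (arrays 1 and 3) and 0.07 (arrays 2 and 4). Between arrays with OXA in different dyes r was 0.42 (arrays 1 and 2), -0.14 (arrays 1 and 4), -0.02 (arrays 2 and 3) and -0.29 (arrays 3 and 4), and read as Cy5 over Cy3 these 4 values change sign. Of the fixed lists, all 8 epithelium genes and 4 of 5 stromal fibroblast genes on the array were bright enough to test. Of all 43603 probes 26927 were tested, so this says little about the tissue. The lists hold 14 epithelium and 11 stromal genes, and KRT18, KRT19, COL1A1, COL3A1 and VIM are among those with no matched probe.

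None of the 6 genes passed limma's test for OXA over control, adjusted over all 26927 probes by Benjamini-Hochberg (adjusted p = 0.763 to 0.898), and no probe on the array did (0% called). With the dyes of the sample labels all 6 fitted OXA values were below 0, from -0.31 for CD14 to -0.04 for TYROBP, with a median of -0.12, where 43% of all probes were below 0 and the median of all probes was 0.02. With median centring in place of loess all 6 were above 0 and their median was 0.20, where the median of all probes was 0.14. None was below control on 4 of 4 arrays (4.26% of all probes were) and none was above control on 4 of 4 (7.64%). What the genes showed by the sample labels was a split by dye. AIF1, GP91-PHOX, CD163, TYROBP and FCER1G, 5 of 6, were higher in Cy5 on 4 of 4 arrays, as were 10.3% of all probes. CD163 was so by only 0.0017 on array 3. With no background correction (9.71% of all probes) and with Agilent's own log ratio (11.1%) only 3 of 6 were so.

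**Figure D1:**
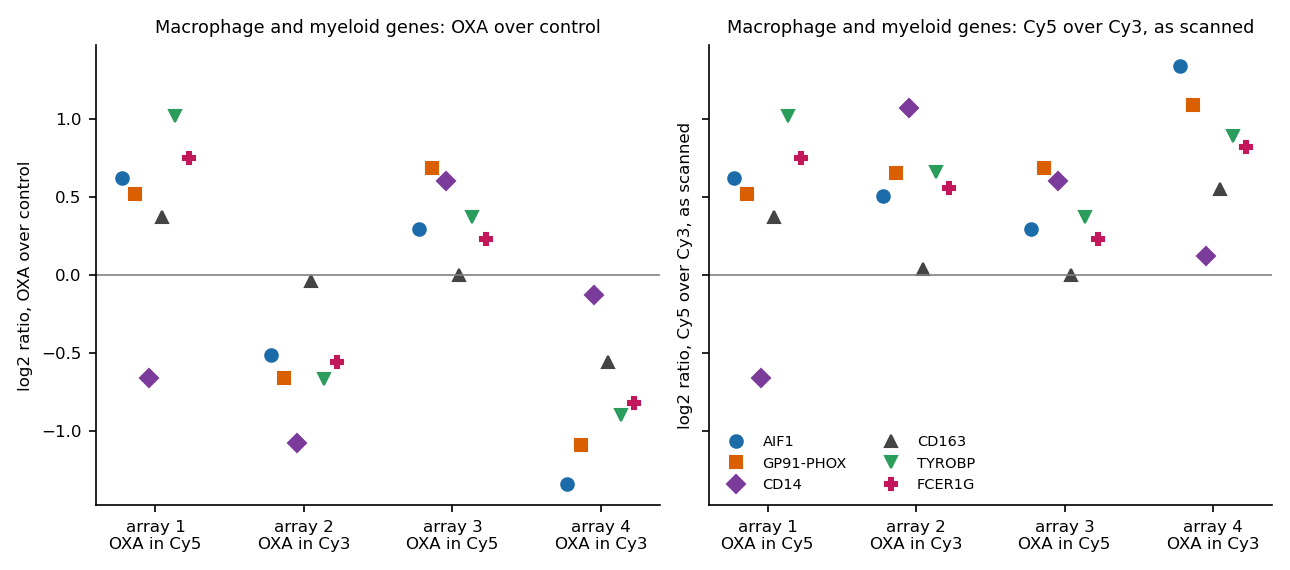
The log2 ratio of the 6 genes (1 probe each) on each array, as OXA over control by the dye labels of the samples (left) and as Cy5 over Cy3 (right), with colours and marks for the genes. On the left most points lie above 0 on arrays 1 and 3 and below 0 on arrays 2 and 4, and on the right only CD14 on array 1 lies below 0.

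The median of the 6 genes, as OXA over control, was 0.57 on array 1 and 0.33 on array 3, where OXA was in Cy5, and -0.61 on array 2 and -0.86 on array 4, where OXA was in Cy3. Read as Cy5 over Cy3, the same medians were 0.57, 0.61, 0.33 and 0.86 on arrays 1 to 4, a mean of 0.59 ± 0.21 (SD, n = 4), against -0.14 ± 0.70 (SD, n = 4) for OXA over control. Both readings differ only in sign on arrays 2 and 4, so the reading with its mean farther from 0 must have the smaller spread. On these 4 arrays the median of all tested probes lay between -0.01 and 0.08 as OXA over control. If the labelling protocol holds, the Cy5 over Cy3 values are OXA over control, and all 6 fitted values are then above 0, from 0.24 for CD163 to 0.74 for GP91-PHOX, with a median of 0.64 and no gene past the threshold (adjusted p = 0.905 for each, limma).

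Among the receptors, CD14 stood apart from the other 5 genes. It was -0.66 on array 1, -1.08 on array 2, 0.60 on array 3 and -0.13 on array 4 as OXA over control, so it was below control on 3 of 4 arrays and above it on array 3. Its spots as scanned read 1649, 1480, 9586 and 1713 with OXA on arrays 1 to 4, against 1416, 8726, 1640.5 and 4130.5 in control. The fitted OXA value was -0.31 (SE 0.29; 95% interval -1.12 to 0.50; adjusted p = 0.763, limma), and the dye value was 0.29 (SE 0.29). Without array 1, the array on the other slide, the OXA value was 0.0013, without array 2 it was -0.08, and without array 3 it was -0.63. A second, dimmer probe of CD14 gave -0.24, -0.30, 0.04 and 0.01, lower with OXA on the same arrays 1 and 2 and close to 0 on arrays 3 and 4.

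CD163, the haemoglobin scavenger receptor, had the smallest ratios of the 6 on arrays 1 to 3. It was 0.37 on array 1, -0.04 on array 2, 0.00 on array 3 and -0.56 on array 4 as OXA over control. Its spots as scanned read 1268, 256.5, 2069 and 640 with OXA, against 554, 369, 720.5 and 4361 in control, so the array with the widest gap was array 4. The fitted OXA value was -0.05 (SE 0.13; 95% interval -0.41 to 0.30; adjusted p = 0.858, limma), and Cy5 over Cy3 averaged 0.24 ± 0.27 (SD, n = 4). The fitted OXA value was 0.04 without array 3 and 0.07 without array 4. With no background correction CD163 was 0.42, -0.22, -0.10 and -1.73 on arrays 1 to 4, and its fitted OXA value -0.41. Of its other 3 probes, 1 was too dim to test, with 2 of 8 readings well above background. The remaining 2 had fitted OXA values of 0.01 and 0.03, opposite in sign to the brighter probe, and all 3 tested values lie within 1 SE of 0.

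The adaptors TYROBP and FCER1G followed the dye on every array. TYROBP was 1.02 on array 1, -0.66 on array 2, 0.37 on array 3 and -0.90 on array 4 as OXA over control. FCER1G was 0.75, -0.56, 0.23 and -0.82 on the same arrays. The arrays with OXA in Cy5 lay above those with OXA in Cy3 for both genes, without overlap, as they did for 5 of 6 genes and for 19.2% of all probes. The spots of TYROBP as scanned read 2461, 897, 9231.5 and 1030 with OXA, against 610, 3558, 2145 and 7547 in control. Those of FCER1G read 1734.5, 1182, 7389 and 1386.5 with OXA, against 554, 4336, 1907 and 7911 in control. On all 4 arrays the brighter reading of either gene as scanned was thus the one in Cy5, as for 50.8% of all probes before normalization, so the raw readings do not set these genes apart.

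Fitted OXA values were -0.04 for TYROBP (SE 0.13; 95% interval -0.42 to 0.34; adjusted p = 0.898, limma) and -0.10 for FCER1G (SE 0.12; 95% interval -0.43 to 0.23; adjusted p = 0.768, limma). Without array 3 both turned above 0, to 0.12 for TYROBP and 0.03 for FCER1G, and without array 4 TYROBP was 0.02. The dye values were larger, 0.74 for TYROBP (SE 0.13) and 0.59 for FCER1G (SE 0.12), folds of 1.67 and 1.51 in Cy5, and missed the threshold among all probes (limma, adjusted p = 0.932 for both). The second probe of TYROBP gave 0.71, -0.60, 0.27 and -0.63, the same split at a smaller size. Of the 15 pairs among the 6 genes, these adaptors had the smallest root mean square difference over the 4 arrays, 0.16, and the 5 pairs with CD14 had the largest, 0.79 to 0.95.

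GP91-PHOX, the oxidase subunit, was 0.52 on array 1, -0.66 on array 2, 0.69 on array 3 and -1.09 on array 4 as OXA over control. Its spots as scanned read 790, 667, 12081.5 and 482 with OXA, against 343, 2629.5, 2088.5 and 7675 in control. AIF1, the macrophage marker, was 0.62 on array 1, -0.51 on array 2, 0.30 on array 3 and -1.34 on array 4. Its spots read 3754, 1520, 13853 and 1354 with OXA, against 1251, 5528, 3517 and 12762 in control. Both genes were thus brighter in Cy5 as scanned on 4 of 4 arrays, as were 50.8% of all probes, and array 4 held the lowest OXA over control ratio of each.

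The fitted OXA value was -0.13 for GP91-PHOX (SE 0.10; 95% interval -0.41 to 0.14) and -0.23 for AIF1 (SE 0.17; 95% interval -0.71 to 0.24), with an adjusted p of 0.763 for each (limma). Without array 4 these were -0.03 and -0.02, and without array 2 they were -0.24 and -0.44. The dye values were 0.74 for GP91-PHOX (SE 0.10) and 0.69 for AIF1 (SE 0.17), with an adjusted p of 0.932 for each (limma). The second AIF1 probe gave 0.17, -0.53, 0.25 and -0.62. With a fitted OXA value of -0.19 (SE 0.06), it was the only one of the 11 tested probes at an unadjusted p under 0.05 for OXA (unadjusted p = 0.0320, adjusted p = 0.763, limma), where 1.86% of all probes were at that threshold and 0.847% were lower with OXA. The second GP91-PHOX probe, with 3 of 8 readings well above background, was not tested and lay between -0.02 and 0.25.

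**Figure D2:**
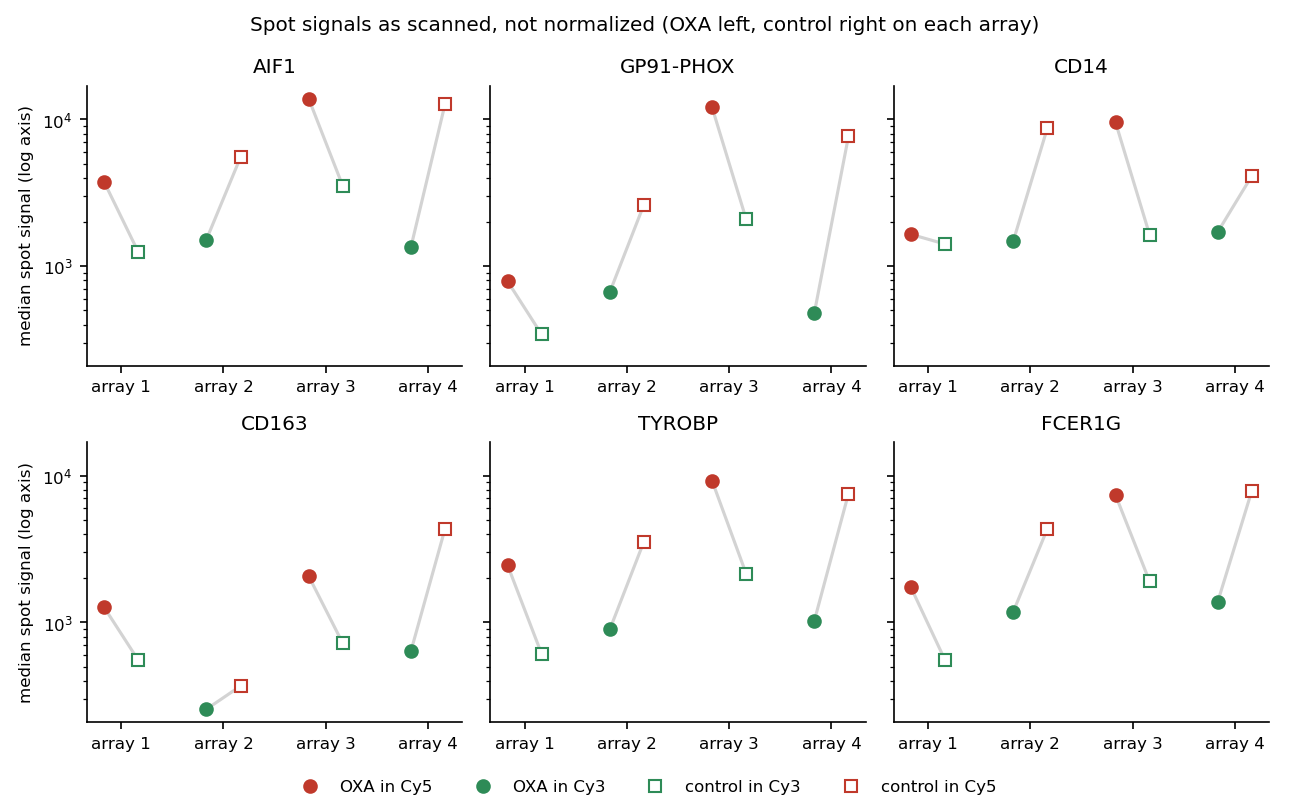
The median spot signal as scanned, on a log axis and before any normalization, of the probe that stands for each gene, with OXA (filled circles) left of control (open squares) on each array and the dye as the colour. In all 6 panels the Cy5 reading is the brighter of each pair, by the least for CD14 on array 1 (1649 against 1416), as it is on 4 of 4 arrays for 50.8% of all probes.

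On the dye coefficient, which is log2 Cy5 over Cy3 averaged over both orientations, 4 of 6 genes (AIF1, GP91-PHOX, TYROBP and FCER1G) were at an unadjusted p under 0.05 and higher in Cy5, as were 3.24% of all probes, and 0 of 6 passed over all probes (limma, lowest adjusted p on the array 0.932, 0% called). CD14 and CD163 were not among the 4. The median of the 6 dye values was 0.64, where that of all probes was 0.03. An exact two-sided test that flips the signs of the 4 arrays cannot go below p = 0.125. It gave that value for Cy5 over Cy3 in each of the 5 genes above 0 on 4 of 4 arrays, and 0.5 for CD14. For OXA over control the same exact test gave p = 0.375 for CD14 and 0.75 to 1 for the others. With median centring, which leaves any trend of the dyes with brightness in place, AIF1, GP91-PHOX, TYROBP and FCER1G passed on the dye coefficient (adjusted p = 0.0172 to 0.0288, limma), but so did 30.5% of all probes, and 54.3% were higher in Cy5 on 4 of 4 arrays.

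**Figure D3:**
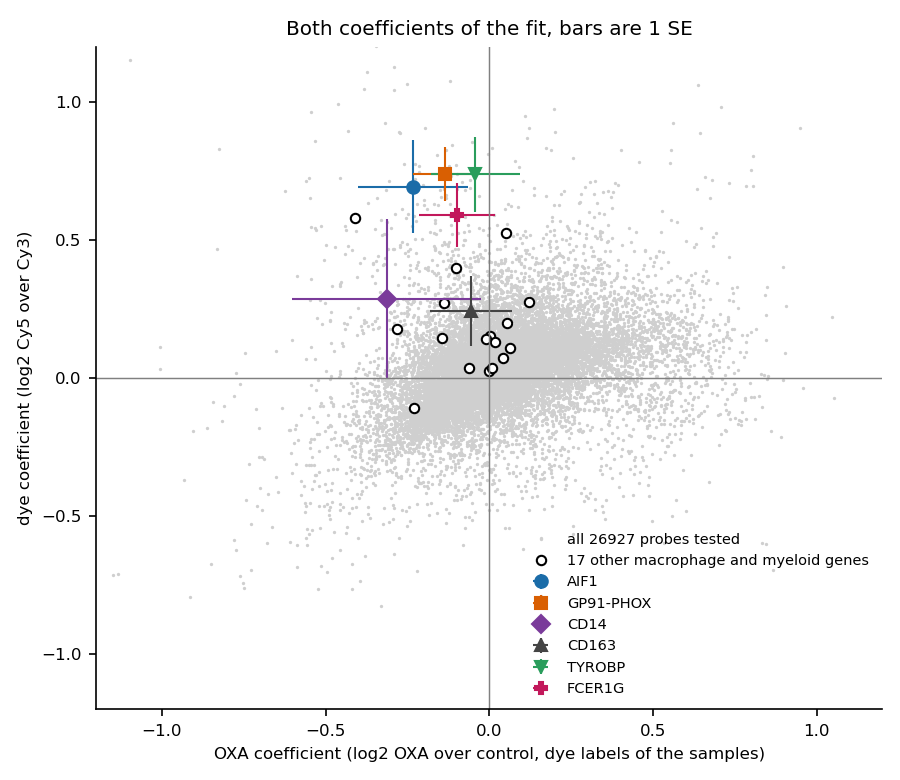
The OXA coefficient (horizontal, log2 OXA over control) against the dye coefficient (vertical, log2 Cy5 over Cy3) for all tested probes in grey, 17 other macrophage and myeloid genes as open circles, and the 6 genes in colour with bars of 1 SE. The 6 genes lie above the horizontal line and left of the vertical one, and 12 probes lie outside the axes.

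Every probe of the 6 genes was followed on every array. Of 13 probes, 7 were well above background in all 8 readings, 3 in 7, and 1 each in 5, 3 and 2 readings. The dim probes stayed near 0 on arrays 2 to 4, between -0.02 and 0.01 for the 3 with 5 or fewer readings above background. On array 1 the same 3 probes were above 0, at 0.13 for the tested CD163 probe and 0.25 for both untested probes. Among the 11 tested probes 8 were higher in Cy5 on 4 of 4 arrays, as were 10.3% of all probes. The exceptions were both CD14 probes and 1 CD163 probe, which was at -0.002 on array 3. The other tested CD163 probes were counted on values close to 0. As Cy5 over Cy3, the brightest was at 0.0017 on array 3. The dimmest tested one was at 0.0022 on array 3 and 0.0044 on array 4.

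**Figure D4:**
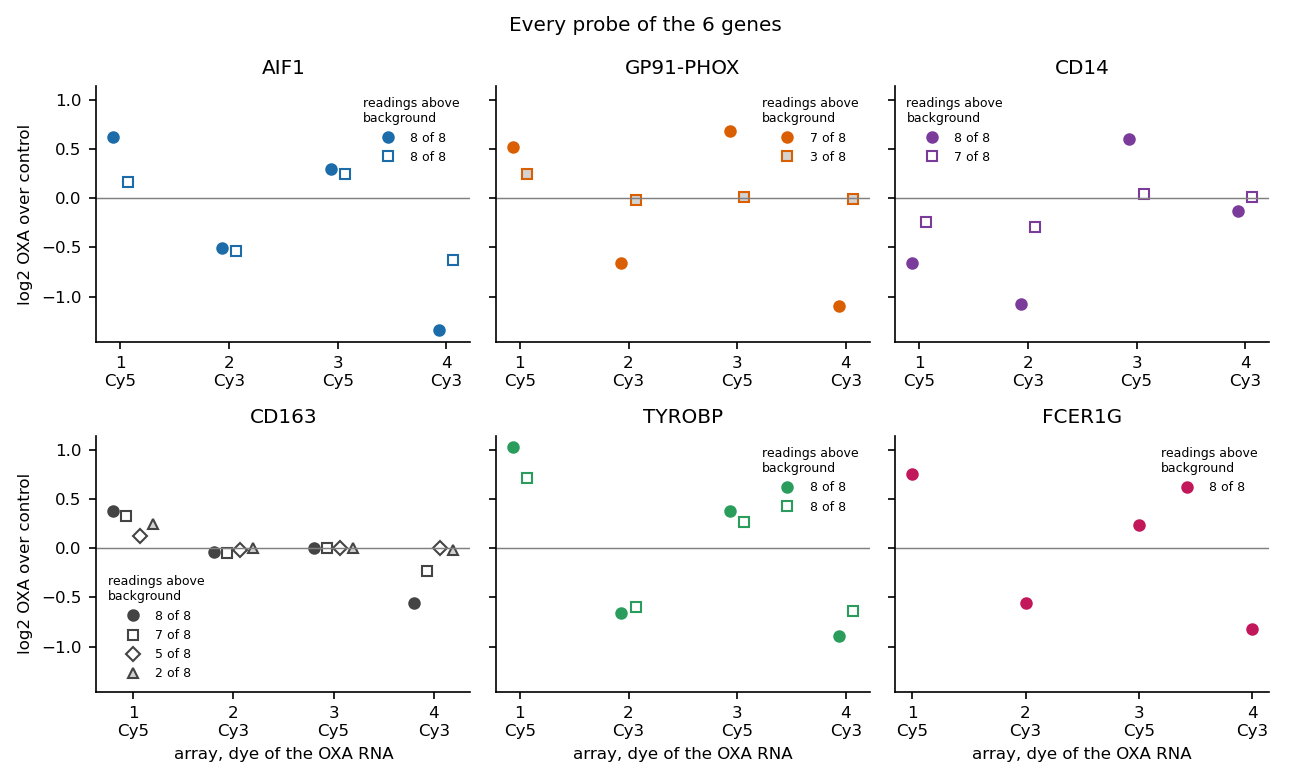
The log2 OXA over control of all 13 probes, by array with the dye of the OXA RNA below it. Filled marks stand for the gene, open marks are other tested probes and grey marks were too dim to test, and the legend gives how many of 8 readings were well above background.

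The size of the ratios differed with the processing. The median of the 6 genes on array 3 was 0.33 after background correction and loess, 0.09 with loess alone and 2.00 with median centring, and on array 4 it was -0.86, -1.74 and -1.57 in the same order. GP91-PHOX on array 4 was -1.09 after background correction and loess, -2.93 with loess alone and -3.32 in Agilent's log ratio. AIF1 on array 4 was -1.34, -2.06 and -2.13 in the same order. On array 3 AIF1 was 0.30, but -0.07 with loess alone and -0.04 by Agilent's ratio, so it no longer followed the dye there, and CD163 was 0.00, -0.10 and -0.11. The authors' deposited table holds the same values as Agilent's log ratios turned to OXA over control (within 0.001) for the 6 probes that stand for the genes, and for all 13 probes in 49 of 52 values, the other 3 being of the probes too dim to test. In the authors' deposited table AIF1 was 0.46, -0.63, -0.04 and -2.13 on arrays 1 to 4. The fitted median of the 6 genes was -0.38 with loess alone and -0.42 in Agilent's log ratio, with no gene past the threshold in either.

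**Figure D5:**
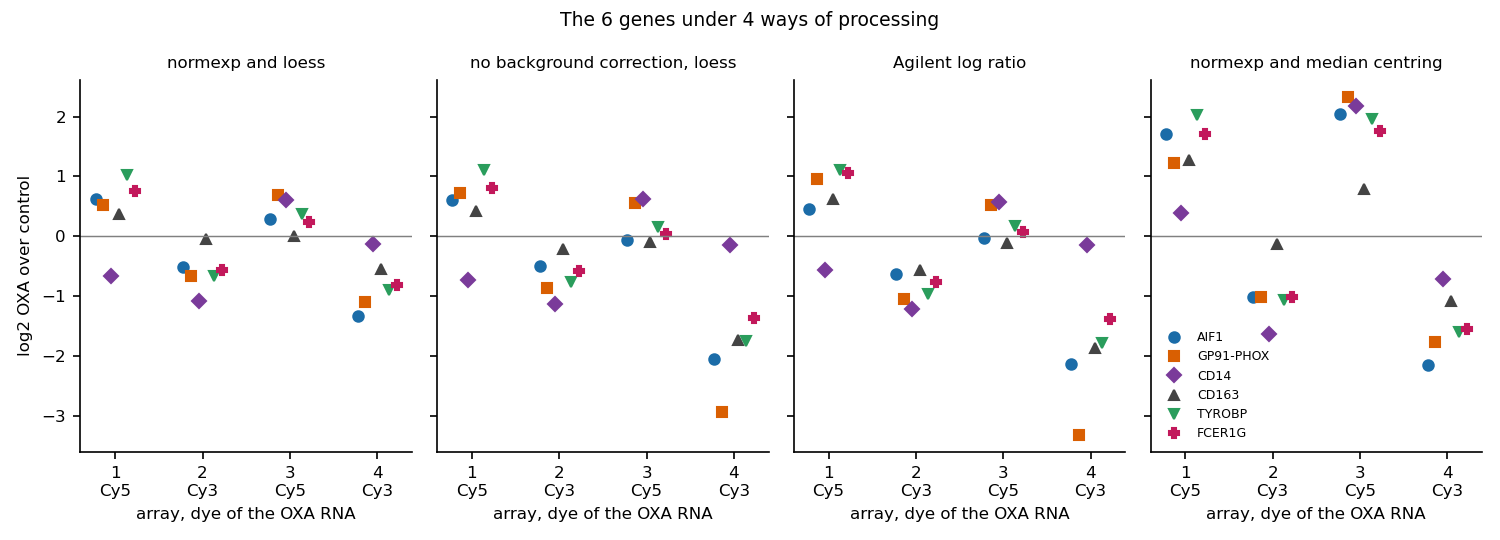
The log2 OXA over control of the 6 genes by array under 4 ways of processing, with the dye of the OXA RNA below each array. Under loess alone and for Agilent's log ratio array 4 lies lowest for every gene but CD14, and with median centring all points of arrays 1 and 3 lie above 0 and all of arrays 2 and 4 below it.

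Genes that work with the 6 were taken from fixed lists, and in every list 0 genes passed over all probes. Of all probes 43% had OXA values below 0, and 1.86% were at an unadjusted p under 0.05 for OXA. Of 5 measured NADPH oxidase genes besides GP91-PHOX, all 5 had OXA values below 0, with a median of -0.02, and 1 was at an unadjusted p under 0.05. That gene was CYBA, the membrane partner of GP91-PHOX, at -0.23, -0.32, -0.34 and -0.15 on arrays 1 to 4, with a fitted value of -0.26 (SE 0.06; adjusted p = 0.763, limma), but 0.10 with median centring. It was below control on 4 of 4 arrays and its dye value was -0.03, beside 0.74 for GP91-PHOX.

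Of 16 measured genes of lipopolysaccharide and Toll-like receptor signalling, which includes the partners of CD14, 10 were below 0 and 6 above 0 on the OXA coefficient, with a median of -0.02, and 0 were at an unadjusted p under 0.05. LY96 (MD-2), which binds lipopolysaccharide beside Toll-like receptor 4, was 0.47, -0.17, 0.39 and -0.63 as OXA over control, a split by dye with a dye value of 0.41 (SE 0.10), and its 4 tested probes had dye values of 0.27 to 0.49. NFKBIA, the inhibitor of NF-kappaB, was 0.04, -0.37, -0.57 and -0.45, below control on both dyes but not on array 1, with a fitted value of -0.34 (SE 0.12), and 0.01 with median centring. Neither passed over all probes (adjusted p = 0.948 and 0.763 for OXA, limma).

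Of 10 measured genes of Fc receptor and adaptor signalling, 7 were below 0 and 3 above 0, with a median of -0.11, and 0 were at an unadjusted p under 0.05 for OXA. FCGR3A (CD16), an Fc receptor that signals through FCER1G, was 0.49, -0.95, 0.74 and -1.37 on arrays 1 to 4. It followed the dye as its adaptor did, with a dye value of 0.89 (SE 0.10), and its 3 tested probes had dye values of 0.43 to 0.89. HCST (DAP10), an adaptor of natural killer cells, had a dye value of 0.24 (SE 0.08). FCGR2B, an inhibitory Fc receptor, had a fitted OXA value of 0.46 (SE 0.22), but 2 of its 3 tested probes were below 0.

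Of 11 measured genes of haemoglobin and iron handling, 8 were below 0 and 3 above 0, with a median of -0.16, and 1 was at an unadjusted p under 0.05 for OXA. That was FTL, the ferritin light chain, at 0.06, -1.09, 0.16 and -0.89, with a fitted value of -0.44 (SE 0.07; adjusted p = 0.763, limma) and a dye value of 0.55 (SE 0.07). Its arrays thus split by dye, and its small SE is the spread within each orientation only. FTH1, the heavy chain, was 1.17, -1.15, 0.29 and -0.77, with a dye value of 0.84 (SE 0.18). HMOX1, the haem oxygenase, was 0.21, -0.51, -0.71 and -0.60, with a fitted OXA value of -0.40 (SE 0.17), and it was -0.63 without array 1 and -0.17 without array 3.

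Of 38 other macrophage and myeloid genes listed, 17 were measured, and their OXA values were below 0 for 9 and above 0 for 8, with a median of -0.0011 and none at an unadjusted p under 0.05. On the dye coefficient 16 of 17 were above 0, with a median of 0.14, and 3 (CCL2, CD40 and IL1B) were at an unadjusted p under 0.05 and higher in Cy5. Only 5 of 17 were higher in Cy5 on 4 of 4 arrays, and 12 of 17 had both arrays with OXA in Cy5 above both with OXA in Cy3, where the shares of all probes were 10.3% and 19.2%. By array their median OXA over control was 0.23, -0.21, 0.00 and -0.15, smaller than that of the 6 genes on each. CCL2, the monocyte chemokine, was 0.40, -0.49, 0.75 and -0.46, with a dye value of 0.53 (SE 0.08). IL1B, the inflammatory cytokine, was -0.28, -0.81, 0.62 and -1.17, with a fitted OXA value of -0.41 (SE 0.18; adjusted p = 0.763, limma) and a dye value of 0.58 (SE 0.18). Without array 1 its OXA value was -0.18, and without array 3 it was -0.63.

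The complement genes C1QA, C1QB and C1QC, made by tissue macrophages, were 0.44, 0.41 and 0.35 on array 1 and lay between -0.53 and -0.05 on the other arrays. LYZ (lysozyme) and MRC1 (the mannose receptor) were 0.58 and 0.35 on array 1 and between -0.29 and 0.00 on the others. As scanned on array 1, the control readings of MRC1, C1QA and C1QC were 225, 310 and 306. The median of negative control spots in Cy3 was 251 there, so these ratios lie close to the floor. C1QB and LYZ read 509.5 and 976 in control on that array. All 5 genes thus had ratios above 0 on array 1 and between -0.14 and 0.00 on array 3, but the list as a whole was mixed. Of its 17 genes, OXA was above control for 12 on array 1, 0 on array 2, 10 on array 3 and 2 on array 4, with ALOX5AP, which takes part in leukotriene synthesis, lowest on array 1 at -0.70 and CCL2 highest on array 3 at 0.75. ITGB2, the leukocyte integrin chain, was -0.36 on array 1, -0.56 on array 2, 0.15 on array 3 and -0.35 on array 4, with a fitted OXA value of -0.28 (SE 0.11; adjusted p = 0.763, limma). CD86, a costimulatory receptor, was at -0.14 (SE 0.07) and at 0.02 with median centring. CTSB, the lysosomal protease cathepsin B, was 0.65, -0.71, -0.06 and -0.28 on arrays 1 to 4.

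Markers of other leukocytes differed in how far they were split by dye. Where 3.24% of all probes were at an unadjusted p under 0.05 and higher in Cy5 and 10.3% were higher in Cy5 on 4 of 4 arrays, the counts by list were as follows. The 7 neutrophil genes had a median dye value of 0.15, with 2 of 7 higher in Cy5 on 4 of 4 arrays and 2 of 7 at an unadjusted p under 0.05, S100A8 at 0.99 (SE 0.21) and S100A12 at 0.54 (SE 0.17). The 16 T and NK lymphocyte genes had a median dye value of 0.13, with 4 of 16 at that threshold and 7 of 16 higher in Cy5 on 4 of 4 arrays, among them GZMB at 0.53 (SE 0.15). The chemokine CCL5 was at 0.96 (SE 0.25). Both B cell genes had dye values below 0, with a median of -0.06, and of 3 mast cell genes 0 were higher in Cy5 on 4 of 4 arrays, with a median of 0.02. Of the 4 pan-leukocyte genes, CD74 was at 0.51 (SE 0.11) and CD48 at 0.41 (SE 0.12). The summed normalized signal of the 17 other myeloid genes ran from 160958 to 198719 with OXA and from 123158 to 267323 in control, that of the neutrophil genes from 23297 to 75073 with OXA and from 48223 to 87397 in control, and that of the T and NK genes from 17630 to 73959 with OXA and from 18287 to 96348 in control. In these sums bright genes weigh most, so they do not measure the signal of a cell type. Such genes were CTSB (mean log2 brightness 16.6) in the myeloid list, CXCL8 (15.1) among neutrophil and CCL5 (14.3) among T and NK genes. SPI1, CD209, SIGLEC1 and CD4 of the myeloid list, MS4A1 of the B cell list and MS4A2 of the mast cell list were on the array but too dim to test. The part of these cell types in the result was not tested.

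Markers of non-immune cells also differed between the RNAs of an array. The 4 measured stromal fibroblast genes had a median OXA over control of 1.45 on array 1 and -0.07 to 0.15 on the others, and the 8 epithelium genes -0.84 on array 1, -0.28 on array 2, 0.07 on array 3 and 0.53 on array 4. Of the 8 epithelium genes 0 were higher in Cy5 on 4 of 4 arrays, and their median dye value was -0.27. The smooth muscle list went the other way, with 4 of 5 genes higher in Cy5 on 4 of 4 arrays and a median dye value of 0.32. Of all probes 10.3% were higher in Cy5 on 4 of 4 arrays. So was 1 of 6 endothelium genes, with a median dye value of 0.21, and 0 of 4 stromal genes, with a median of 0.40. The median Cy5 over Cy3 of the stromal genes was 1.45, 0.07, 0.10 and -0.15 on arrays 1 to 4. The summed signal of the stromal genes ran from 26869 to 79192 with OXA and from 28019 to 57134 in control. That of the epithelium genes ran from 97153 to 123338 with OXA and from 78950 to 200955 in control. Bright genes weigh most in both sums. Median OXA values of the other lists were -0.24 for the pan-leukocyte genes, -0.09 for neutrophil, 0.01 for 3 mast cell, -0.04 for T and NK, -0.18 for 2 B cell, -0.11 for endothelium, -0.14 for smooth muscle and -0.04 for conceptus trophoblast genes, with 0 genes at an unadjusted p under 0.05 in any of these or in the stromal (0.41) and epithelium (-0.11) lists. Their part in the values of the 6 genes was not tested.

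The genes most like the 6 were sought among 2401 other named genes by the root mean square difference from the profile of medians of the 6 over the 4 arrays. The closest was CXCL16, a chemokine and scavenger receptor, at a difference of 0.08, with 0.70, -0.68, 0.36 and -0.91 on arrays 1 to 4. It was closer to that profile than each of the 6 genes themselves, of which FCER1G was nearest at 0.11 and CD14 farthest at 0.77. DOK2, an adaptor protein of blood cells, followed at 0.15, CCR7, a chemokine receptor, at 0.19, and the swine leukocyte antigen genes SLA-DRB1 and SLA-8 at 0.19 and 0.20. HSD11B1, a glucocorticoid-activating enzyme, MT3, a metallothionein, and GBP1, a guanylate-binding protein, were at 0.20, 0.21 and 0.21. All 8 were higher in Cy5 on 4 of 4 arrays, as the profile they were matched to requires.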

How the data were processed

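Gene expression was measured on 4 Agilent two-colour arrays, each holding OXA-treated and untreated endometrium. The deposited scanner files hold median spot and background intensities, and, per the file headers, were made by version 10.7.3.1 of Feature Extraction, which also wrote log10 ratios of Cy5 over Cy3. The deposited value table holds log2 ratios of OXA over control. Their slope on the scanner ratios was 1.06, -1.00, 1.04 and -1.03 on arrays 1 to 4 over 43420 shared probes. Arrays 2 and 4 are thus turned in that table, as the sample labels have it. Column medians were -0.17, 0.06, -0.06 and 0.09. For the 6 probes that stand for the genes, 24 of 24 values equal Agilent's log ratios turned to OXA over control (within 0.001), with no further shift. How Agilent's own ratios were centred was not examined. Median intensities were used, as mean signals were not used here.

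Signals were corrected with normexp (offset 50) and normalized by loess within arrays. The log2 ratios were fitted in limma 3.58.1 (R 4.3.3) with an OXA and a dye coefficient, leaving 2 residual degrees of freedom, 3.88 after moderation. Probes were kept when well above background in at least 4 of 8 readings, control and outlier spots were left out, and p-values were adjusted by Benjamini-Hochberg. With 4 arrays, p-values measure the spread between arrays of one dye orientation. Gene names came from RefSeq accessions matched without versions to a RefSeq table (Sscrofa11.1), where 6700 of 7125 probes with an accession matched 3029 genes. Coordinates are not printed, as the files name no build.

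The members and the 15 lists were chosen with earlier results of these data known. Named genes were the 6 members, up to 4 genes of each list by lowest unadjusted p on the OXA coefficient and up to 4 on the dye coefficient, every measured gene of the myeloid list, and the 8 genes closest to the profile of the 6. Not all of these are printed, and that choice was made with their values known. The fit was tested on simulated data. The alternatives were other background, scaling, filter, weighting and slide settings, Agilent's ratios, the deposited table, both dye readings, and leaving out each array.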

Additional observations from a re-analysis of the deposited data

How the results depend on the processing

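The 6 genes did not pass for OXA under any of 19 alternatives (18 for GP91-PHOX, which has 7 of 8 readings well above background and drops out where all 8 are asked for), and over all probes 0 were called in each of them except without replicate 4, where 6 were (0 to 6 without 1 array). The looser count (unadjusted p under 0.05, fold at least 1.2) was 349. It was 679 where Cy5 is taken as OXA throughout, 1406 with no background correction, 1829 with Agilent's log ratio, 4297 with median centring, 1824 with the authors' deposited table, 193 with array weights, and 285 to 3120 without 1 array. Where Cy5 is taken as OXA throughout, the median of the 6 genes was 0.64, against -0.12 by the sample labels. AIF1 was then 0.69, GP91-PHOX 0.74, CD14 0.29, CD163 0.24, TYROBP 0.74, FCER1G 0.59, NFKBIA 0.073, FTL 0.55, HMOX1 0.15, FCGR3A 0.89, ITGB2 0.18, IL1B 0.58 and CD86 0.14. With median centring AIF1 was 0.14, GP91-PHOX 0.19, CD14 0.055, CD163 0.21, TYROBP 0.33, FCER1G 0.23, CYBA 0.10, NFKBIA 0.0054, FCGR3A 0.064 and CD86 0.023, and 4 of 6 genes passed on the dye coefficient, as did 30.5% of all probes. On the slide of arrays 2 to 4, and with the slide as a fixed term, CD14 was 0.0013. With the median over the probes of a gene CD163 was 0.014 and FCGR2B -0.025. Without 1 array the OXA values ran from -0.63 to 0.0013 for CD14, -0.18 to 0.074 for CD163, -0.20 to 0.12 for TYROBP and -0.23 to 0.032 for FCER1G, and the dye value of CD14 from -0.028 to 0.60. The number of the 6 higher in Cy5 on every array was 5, as were 10.3% of all probes. It was 3 with no background correction (9.71% of all probes), with Agilent's log ratio (11.1%) and with the authors' deposited table (11.1%). Without 1 array it was 5 to 6, but fewer arrays then need to agree, and 13.3% to 24.2% of all probes did so. These settings were chosen after the data were seen. Normalizing the average brightness between arrays (Aquantile) leaves ratios as they are. Leaving out an array keeps 1 residual degree of freedom, in an arm of 1 array that is assumed to vary like the other. The causes of these changes were not tested. Each ratio already pairs the 2 RNAs of its array. No pairing by gilt could be added, as the sources used here do not say whether both came from 1 gilt. The probes that stand for CD163 and GP91-PHOX had 8 and 7 of 8 readings well above background. Their other probes were dimmer, which limits how far the probes of these genes can be compared.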
